A study of Mus musculus with 8 samples.

Results

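The 9 genes described here encode the BNIP3 family and the other mitophagy receptors and adaptors: Bnip3, Bnip3l, Fundc1, Pink1, Phb2, Bcl2l13, Fkbp8, Map1lc3b and Sqstm1. They were taken by gene symbol from a table of 55414 mouse genes, and each of the 9 had exactly this symbol in the table. The table gives the transcript abundance, as TPM (transcript copies per fixed total, scaled for transcript length), of 8 RNA sequencing libraries from B16F10, a mouse melanoma cell line. The study asked what cyclophilin D (CypD), a peptidyl-prolyl isomerase of the mitochondrial matrix that is encoded by Ppif, changes in melanoma cells. WT was unmodified B16F10 and CypD KO was B16F10 in which Ppif was edited with CRISPR/Cas9 before puromycin selection of clones, and both were kept at 21% O2 for 24 h. Control was B16F10 that stably carried the empty pcDNA vector and CypD OE was B16F10 that stably carried pcDNA-CypD, both from clones selected in G418, and both were kept at 1% O2 for 24 h. Each group had 2 libraries, and the sources do not state that they came from separate cultures or how many clones each line held, so p-values measure only the spread between these libraries. CypD KO against WT compares edited clones selected in puromycin with unmodified cells, so loss of Ppif, the editing and selection cannot be told apart. CypD OE against Control compares different selected clones, so the insert and the clones cannot be told apart either. A comparison of Control or CypD OE with WT or CypD KO changes the oxygen, the vector and the drug selection together. Their parts cannot be told apart.

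Mitophagy is the removal of mitochondria by autophagosomes. In the receptor route, proteins of the mitochondrial membranes (BNIP3, its close relative BNIP3L, which is also called NIX, FUNDC1, BCL2L13, FKBP8 and, after the outer membrane has ruptured, PHB2 of the inner membrane) bind directly to ATG8-family proteins such as LC3B, the product of Map1lc3b. In the ubiquitin route, the kinase PINK1 builds up on damaged mitochondria and phosphorylates ubiquitin, and soluble adaptors such as p62, the product of Sqstm1, link the ubiquitin to the ATG8 proteins. BNIP3 and BNIP3L are textbook targets of the hypoxia-inducible factors (HIFs), transcription factors that are degraded when oxygen is plentiful.

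The targeted gene was examined first. The WT libraries held 50.7 and 49.99 TPM of Ppif and the CypD KO libraries 10.4 and 12.1 TPM, which left 22.4% of the mean WT level after knockout. In the libraries labelled CypD OE Ppif stood at 50.3 and 49.3 TPM, against 44.6 and 42.3 TPM in Control, a difference of 0.19 on the log2 scale with a standard error (SE) of 0.07 (adjusted p = 0.0794, not called). The same difference was called without either CypD KO library (adjusted p of 0.0325 and 0.0330). Whether transcripts of the pcDNA-CypD insert were counted as mouse Ppif is not given in the sources used here, so this value does not measure the insert with certainty. This group is therefore called the labelled CypD OE group throughout. All 7 melanocyte markers (Mlana, Pmel, Tyr, Tyrp1, Dct, Mitf and Sox10) were at 1 TPM or more in every library. Differences were tested with limma on log2(TPM + 1) for the 13526 genes at 1 TPM or more in at least 2 libraries, and a gene was called when its Benjamini-Hochberg adjusted p was below 0.05. All 9 members passed this level in every library. The fold changes below are on the log2(TPM + 1) scale, which understates the change of low genes. Permuting 2 libraries against 2 exactly, in both directions, allows no p under 0.333, so the significance of each call rests on the spread that limma estimates over all genes.

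Bnip3 and Bnip3l showed the largest differences of the 9 genes in CypD KO against WT, labelled CypD OE against Control and Control against WT. Bnip3 (ENSMUSG00000078566, chr7:138490690-138511253, minus strand, GRCm39) was measured at 14.4 and 11.1 TPM in WT, 258 and 249 TPM in CypD KO, 311 and 307 TPM in Control, and 13.6 and 12.5 TPM in the labelled CypD OE group. The 8 libraries thus fell into a low set (WT and labelled CypD OE, which overlapped) and a high set (CypD KO and Control, which did not overlap each other). Bnip3 was on average 19.9 times as abundant in CypD KO as in WT, and the fitted change on the log2(TPM + 1) scale was 4.22 (SE 0.11, adjusted p = 1.17e-06). The Control mean was 23.7 times the labelled CypD OE mean, and the fitted change of labelled CypD OE against Control was -4.47 (SE 0.11, adjusted p = 1.21e-06). On the log2(TPM + 1) scale, of the 13526 genes tested, 9, Bnip3 included, rose by at least as much as Bnip3 in CypD KO, and 10 fell by at least as much in labelled CypD OE. In bulk RNA, a change in the number of cells that express a gene and a change in the RNA per cell cannot be told apart.

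Bnip3l (ENSMUSG00000022051, chr14:67222678-67246356, minus strand) started from a higher level and changed by less. It stood at 42.4 and 47.8 TPM in WT, 153 and 139 TPM in CypD KO, 212 and 202 TPM in Control, and 48.5 and 54.2 TPM in the labelled CypD OE group. No Bnip3l value of one group overlapped those of another. The CypD KO mean was 3.24 times the WT mean (log2 fold change 1.67, SE 0.08, adjusted p = 1.21e-05), and the Control mean was 4.03 times the labelled CypD OE mean (-1.99 for labelled CypD OE against Control, SE 0.08, adjusted p = 9.32e-06). A processed pseudogene, Bnip3l-ps on chromosome 12, moved in the same directions at far lower levels, between 0 and 1.76 TPM, with changes of 0.78 (adjusted p = 0.0298) and -0.76 (adjusted p = 0.0400). Reads shared between Bnip3l and this copy could be split between them by the counting, so the values of the copy are uncertain.

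**Figure D1:**
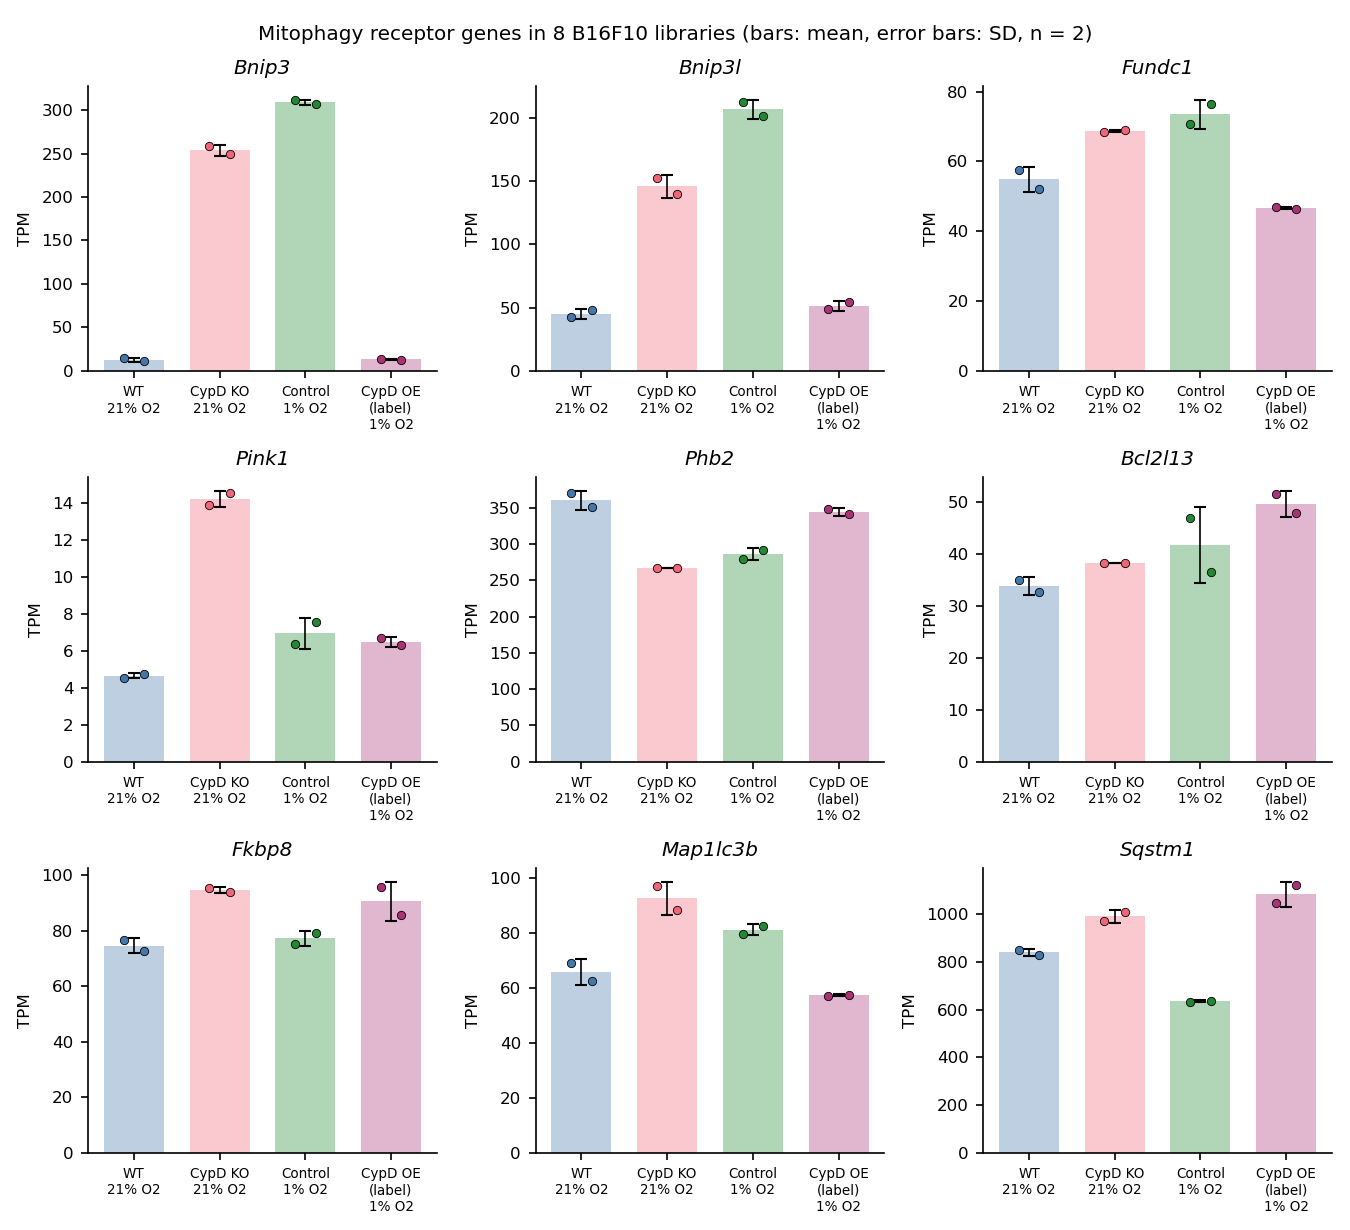
Abundance of the 9 mitophagy genes in TPM (vertical axes, each starting at 0 with its own range) in the WT, CypD KO, Control and labelled CypD OE groups. Points are libraries, bars are group means and error bars are SDs with n = 2: Bnip3 and Bnip3l were high in CypD KO and Control, Pink1 was highest in CypD KO, and Sqstm1 was lowest in Control.

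The comparisons across oxygen levels placed the 4 groups on one scale for these 2 genes. Control exceeded WT in Bnip3 by 4.51 (SE 0.11, adjusted p = 2.48e-06) and in Bnip3l by 2.18 (SE 0.08, adjusted p = 1.60e-05). The labelled CypD OE group at 1% O2 differed from WT at 21% O2 by 0.04 for Bnip3 (SE 0.11, adjusted p = 0.815) and by 0.18 for Bnip3l (SE 0.08, adjusted p = 0.142), neither of which was called. The direction of the Bnip3 difference was not stable, since it was -0.13 without WT replicate 2 and -0.014 without CypD OE replicate 1. Control exceeded CypD KO in Bnip3l by 0.50 (SE 0.08, adjusted p = 0.00260). The Bnip3 difference between the same groups, 0.28 (SE 0.11, adjusted p = 0.0716), was not called here but was called without either WT library (adjusted p = 0.00720 and 0.00710), in a fit of the 4 libraries alone (0.00558) and after rescaling the libraries by the median of their gene-wise ratios (0.38, adjusted p = 0.0277).

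The 5′ flank of Bnip3 is shown because Bnip3 had the largest changes between its low and high sets, and those of Pink1 and Phb2 because these genes followed other patterns. The windows searched were RefSeq promoters (GRCm38.p6), 250 bases before to 50 bases after each gene start, and 8 of the 9 members had one, the exception being Bnip3l. The search covered both strands for ACGTG and GCGTG, the letters of the core of the hypoxia response element, for CACGTG, an E-box that holds ACGTG on both strands, and for TGACNNNGC, the core of the antioxidant response element. Capitals mark the matches, which read CACGC or CACGT where the match is on the other strand, and each stretch is written 5′ to 3′ on the strand of its gene. Each was placed on GRCm39 by an exact match, the only one on its chromosome.
Bnip3, bases -121 to -92 from the start, chr7:138511327-138511356 (GRCm39): ggcgCACGCgccgCACGTGccaCACGCtcc
Bnip3, bases -48 to -19, chr7:138511254-138511283: gggctccgccgccGCGTGcgtcccgccccg
Pink1, bases -60 to -31, chr4:138053638-138053667: gggtagcgcccccGCGTGctgcgcaggaga
Phb2, bases -211 to -182, chr6:124689041-124689070: taagttagaacttCACGTccgtcctcacgg
The Bnip3 window held 5 matches of ACGTG or GCGTG, 4 of them within the first stretch, where both strands of the single CACGTG count. Map1lc3b also held 5, all of them GCGTG, Fkbp8 held 2, Pink1, Phb2 and Bcl2l13 held 1 each, and Fundc1 and Sqstm1 held none. Of all 32851 windows, 43.8% held at least 1 such match and 1.66% held 5 or more. TGACNNNGC, present in 12.4% of windows, was found in Bcl2l13 (2 matches) and Map1lc3b (1 match), and CACGTG, present in 7.15%, was found in Bnip3. These matches describe letters in a window and are not measured binding sites.

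The balance among the membrane receptors shifted with the BNIP3 family. TPM is per transcript length, so levels of different genes can be set side by side. The ratio of Bnip3 to Bnip3l was 0.340 and 0.232 in WT and 0.280 and 0.231 in labelled CypD OE, against 1.69 and 1.79 in CypD KO and 1.47 and 1.52 in Control. Bnip3l was thus the more abundant of the pair in the low set and Bnip3 in the high set. Summed over 6 membrane receptors (Bnip3, Bnip3l, Fundc1, Phb2, Bcl2l13 and Fkbp8), the level was 596 and 568 TPM in WT, 879 and 857 TPM in CypD KO, 996 and 993 TPM in Control, and 604 and 587 TPM in labelled CypD OE. Bnip3 and Bnip3l together made up 9.54% and 10.4% of that sum in WT and 10.3% and 11.4% in labelled CypD OE. In CypD KO they made up 46.7% and 45.4%, and in Control 52.6% and 51.2%. By mean level among the 9 genes, Bnip3 ranked 8th in WT and in labelled CypD OE, 3rd in CypD KO and 2nd in Control, while Sqstm1 ranked 1st and Pink1 9th in every group. The neighbours Phb2 and Bnip3 in CypD KO (267 and 267 TPM against 258 and 249 TPM) and Bnip3 and Phb2 in Control (311 and 307 TPM against 280 and 292 TPM) did not overlap.

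**Figure D2:**
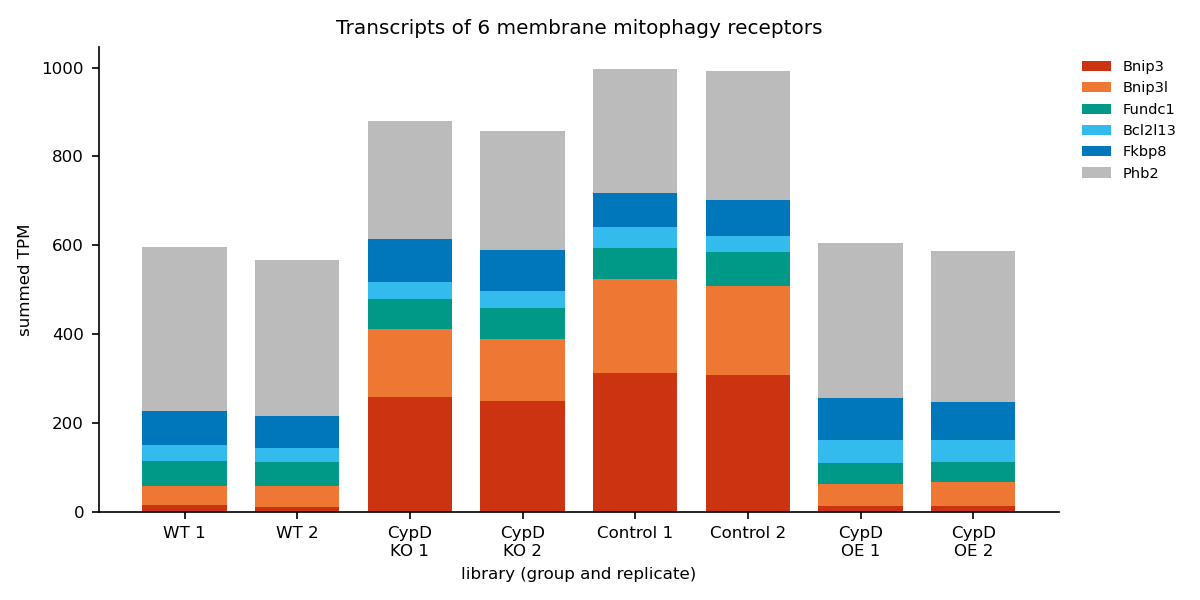
Summed TPM (vertical axis) of 6 membrane mitophagy receptors in each of the 8 libraries (horizontal axis), stacked by gene. Bnip3 and Bnip3l together took from 9.54% to 11.4% of the sum in WT and labelled CypD OE and from 45.4% to 52.6% in CypD KO and Control.

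Fundc1 and Map1lc3b moved in the same directions as Bnip3 in the WT to CypD KO and Control to labelled CypD OE comparisons, by far less. FUNDC1 is an outer-membrane receptor whose binding to LC3 is controlled by phosphorylation. Fundc1 (ENSMUSG00000025040, chromosome X) stood at 57.4 and 52.2 TPM in WT, 68.4 and 69.0 TPM in CypD KO, 70.6 and 76.5 TPM in Control, and 46.9 and 46.3 TPM in labelled CypD OE. The labelled CypD OE libraries were the lowest of all 8. The change was 0.32 in CypD KO against WT (SE 0.06, adjusted p = 0.00442), -0.65 in labelled CypD OE against Control (SE 0.06, adjusted p = 0.000329) and 0.42 in Control against WT (SE 0.06, adjusted p = 0.00379).

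Map1lc3b (ENSMUSG00000031812, chromosome 8) encodes LC3B, the ATG8-family protein to which these receptors bind. It stood at 69.3 and 62.4 TPM in WT, 97.0 and 88.3 TPM in CypD KO, 79.8 and 82.7 TPM in Control, and 57.3 and 57.6 TPM in labelled CypD OE. CypD KO was the highest group and labelled CypD OE the lowest, and no groups overlapped. The change was 0.49 in CypD KO against WT (SE 0.07, adjusted p = 0.00102) and -0.49 in labelled CypD OE against Control (SE 0.07, adjusted p = 0.00152). The rise in Control over WT, 0.30 (SE 0.07, adjusted p = 0.0182), was lost without WT replicate 2 (adjusted p = 0.0826), without Control replicate 1 (0.0570) or without Control replicate 2 (0.0875).

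Pink1 stood highest in CypD KO, with Control well below it. Pink1 (ENSMUSG00000028756, chr4:138039346-138053618, minus strand) was the least abundant member, at 4.54 and 4.73 TPM in WT, 13.9 and 14.5 TPM in CypD KO, 6.35 and 7.54 TPM in Control, and 6.66 and 6.28 TPM in labelled CypD OE. The CypD KO libraries stood above all others, WT stood below all others, and Control and labelled CypD OE overlapped. The CypD KO mean was 3.06 times the WT mean (log2 fold change 1.43, SE 0.10, adjusted p = 6.81e-05), and Control was lower than CypD KO by a change of -0.94 (SE 0.10, adjusted p = 0.000488). Labelled CypD OE differed from Control by -0.09 (SE 0.10, adjusted p = 0.566), and the sign turned to 0.023 without Control replicate 2. Control exceeded WT by 0.49 (SE 0.10, adjusted p = 0.0164), a call that was lost without WT replicate 1, WT replicate 2 or Control replicate 2 (adjusted p of 0.0708, 0.0559 and 0.0776). Pink1 overlaps Ddost on the other strand, which stood at 83.0 to 106 TPM. Whether the counting used the strand is not given in the sources used here, so reads of the 2 genes in their overlap cannot be assigned with certainty. Ddost had 93.0 and 89.4 TPM in the WT libraries, and 85.6 and 86.1 TPM in CypD KO, where Pink1 was highest. It had 105 and 106 TPM in Control, where Pink1 exceeded WT, and 88.1 and 83.0 TPM in labelled CypD OE. The part of such reads in the Pink1 values was not tested.

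Phb2 fell where the BNIP3 family rose. PHB2 is an inner-membrane scaffold protein that forms ring complexes with PHB1. Phb2 (ENSMUSG00000004264, chr6:124689299-124693913, plus strand) stood at 370 and 351 TPM in WT, 267 and 267 TPM in CypD KO, 280 and 292 TPM in Control, and 348 and 341 TPM in labelled CypD OE. The CypD KO and Control libraries were all below the WT and labelled CypD OE libraries. The change was -0.43 in CypD KO against WT (SE 0.04, adjusted p = 0.000121), 0.27 in labelled CypD OE against Control (SE 0.04, adjusted p = 0.00161) and -0.33 in Control against WT (SE 0.04, adjusted p = 0.00128). It was the one member called lower in CypD KO.

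Bcl2l13 and Fkbp8 did not follow the order of groups seen for Bnip3. BCL2L13 is a counterpart of the yeast receptor Atg32, and FKBP8 is an outer-membrane immunophilin. Bcl2l13 (ENSMUSG00000009112, chromosome 6) stood at 35.01 and 32.6 TPM in WT, 38.2 and 38.2 TPM in CypD KO, 46.9 and 36.5 TPM in Control, and 51.5 and 47.9 TPM in labelled CypD OE. The Control libraries were the farthest apart of any group. The difference of 0.17 between CypD KO and WT (SE 0.11, adjusted p = 0.248) was not called, nor was that of 0.26 between labelled CypD OE and Control (SE 0.11, adjusted p = 0.115). The latter became 0.43 and was called without Control replicate 1 (adjusted p = 0.0106), and Control against WT (0.28, adjusted p = 0.113) became 0.46 and was called without Control replicate 2 (adjusted p = 0.0156). Control against CypD KO (0.11, adjusted p = 0.460) turned to -0.065 without Control replicate 1 and was called at 0.29 without Control replicate 2 (adjusted p = 0.0306).

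Fkbp8 (ENSMUSG00000019428, chromosome 8) stood at 76.5 and 72.6 TPM in WT, 95.3 and 93.8 TPM in CypD KO, 75.2 and 79.0 TPM in Control, and 95.5 and 85.4 TPM in labelled CypD OE. The CypD KO and labelled CypD OE libraries were above those of WT and Control. Fkbp8 rose by 0.34 in CypD KO against WT (SE 0.06, adjusted p = 0.00383), and Control was lower than CypD KO by a change of -0.29 (SE 0.06, adjusted p = 0.00830). Fkbp8 also rose by 0.23 in labelled CypD OE against Control (SE 0.06, adjusted p = 0.0266). This call was lost with no filter on low TPM (adjusted p = 0.0564), in a fit of the 4 libraries alone (0.0772) and without a trend (0.0583). It was also lost without Control replicate 1, Control replicate 2 or CypD OE replicate 1 (changes of 0.19, 0.26 and 0.15).

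Sqstm1 was the most abundant member and, of the 9 genes, rose the most in labelled CypD OE against Control. p62 gathers ubiquitinated cargo, and its gene is a known target of the stress-response factor NRF2. Sqstm1 (ENSMUSG00000015837, chr11:50089572-50107684, minus strand) stood at 850 and 830 TPM in WT, 971 and 1011 TPM in CypD KO, 631 and 637 TPM in Control, and 1045 and 1121 TPM in labelled CypD OE. The 4 groups did not overlap, with Control lowest and labelled CypD OE highest. Sqstm1 rose by 0.77 in labelled CypD OE against Control (SE 0.04, adjusted p = 2.54e-05), and the labelled CypD OE mean was 1.71 times the Control mean. Control was lower than WT by a change of -0.40 (SE 0.04, adjusted p = 0.000760) and lower than CypD KO by a change of -0.64 (SE 0.04, adjusted p = 3.63e-05). The rise of 0.24 in CypD KO against WT (SE 0.04, adjusted p = 0.00244) shrank to 0.12 after rescaling by the median of ratios and was then not called (adjusted p = 0.0629). Sqstm1 overlaps Mgat4b on the other strand, which stood at 233 to 325 TPM and was highest in Control. Phb2, Bcl2l13, Fkbp8 and Map1lc3b also overlap genes on the other strand (Gm15884, Bid, Kxd1 and Zcchc14), each of which was below the member in every library.

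**Figure D3:**
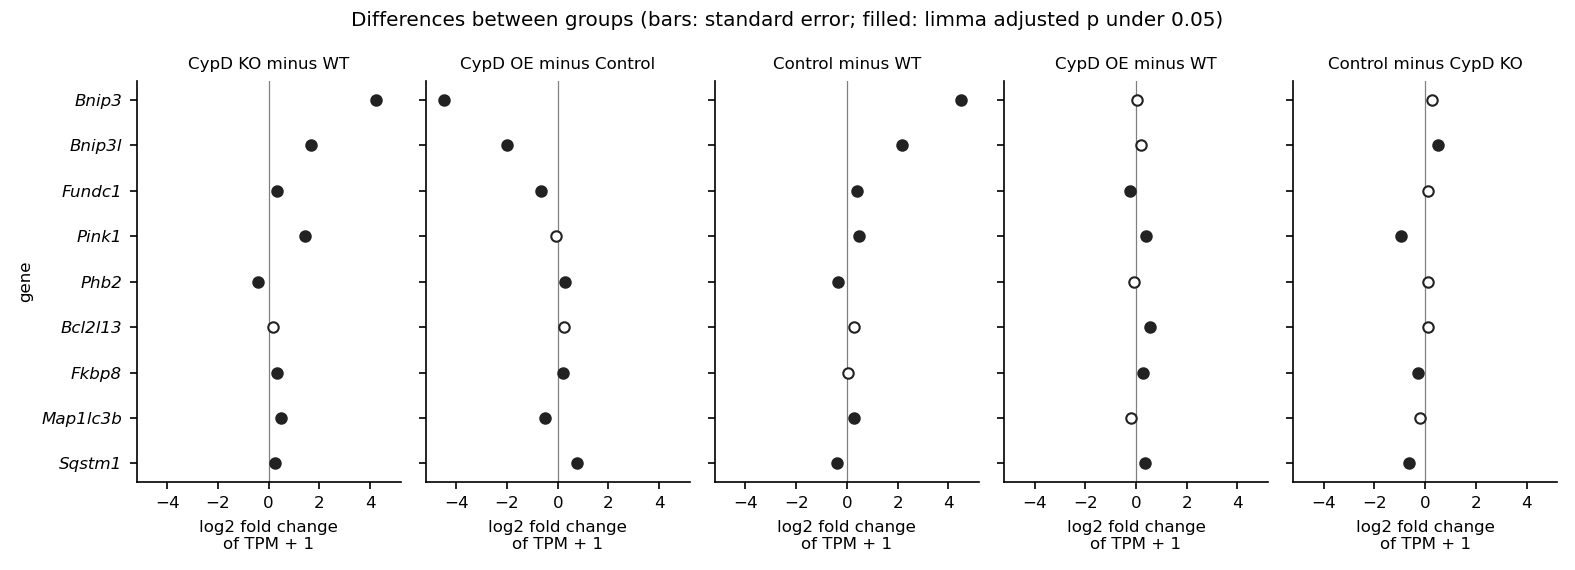
Difference in log2(TPM + 1) (horizontal axes) of each of the 9 genes (vertical axis) in 5 comparisons of groups of 2 libraries. Filled points had a limma adjusted p under 0.05, open points did not, and error bars are standard errors, which are often smaller than the point: Bnip3 reached 4.22 in CypD KO against WT and -4.47 in labelled CypD OE against Control.

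Counted over the 9 genes, CypD KO against WT gave 7 higher (Bnip3, Bnip3l, Fundc1, Pink1, Fkbp8, Map1lc3b and Sqstm1) and 1 lower (Phb2), with a median change of 0.34. Of the 13526 genes tested, 5094 rose at least as much as Sqstm1, 4244 as Fundc1, 4092 as Fkbp8 and 2974 as Map1lc3b. For Pink1 this number was 509 and for Bnip3l 335, the gene itself included each time. Over all genes tested, 30.1% were called higher and 18.4% lower, with a median change of 0.09. That split over all genes depended on the scaling, since 4066 higher and 2486 lower became 3204 higher and 3481 lower after rescaling by the median of ratios, when 6 members were higher and 1 lower. Labelled CypD OE against Control gave 3 higher (Phb2, Fkbp8 and Sqstm1) and 4 lower (Bnip3, Bnip3l, Fundc1 and Map1lc3b), with a median of -0.09, against 19% higher and 18.3% lower of all genes.

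The comparisons across oxygen levels gave other counts, and they share the WT, Control or CypD KO libraries with the comparisons above. Control against WT gave 5 members higher (Bnip3, Bnip3l, Fundc1, Pink1 and Map1lc3b) and 2 lower (Phb2 and Sqstm1), where 12.1% of all genes were called higher and 12.1% lower. The 5 fell to 3 in a fit of the 4 libraries alone, where 998 of all genes were called higher instead of 1634. Fewer members were also called without WT replicate 2, where fewer of all genes were called too. Labelled CypD OE against WT gave 4 higher (Pink1, Bcl2l13, Fkbp8 and Sqstm1, by 0.41, 0.54, 0.27 and 0.37) and 1 lower (Fundc1, by -0.23), where 14% and 13.7% of all genes were called. Fewer of the 4 were called without WT replicate 2 or CypD OE replicate 1, where fewer of all genes were called too. Fundc1 was no longer called without WT replicate 1, either CypD KO library or either CypD OE library, and without WT replicate 2 it was joined by Map1lc3b. For Pink1 in labelled CypD OE against WT, the call was also lost with no filter on low TPM (adjusted p = 0.0672). It was likewise lost in a fit of the 4 libraries alone (adjusted p = 0.0668). Omitting either WT, either CypD KO or either CypD OE library also lost this Pink1 call, with changes from 0.37 to 0.44. Control against CypD KO gave 1 higher (Bnip3l) and 3 lower (Pink1, Fkbp8 and Sqstm1), where 16.5% and 27.4% of all genes were called. Without WT replicate 1, WT replicate 2 or Control replicate 2 the count of higher members was 2. After rescaling by the median of ratios, 4 members were higher (Bnip3, Bnip3l, Fundc1 and Phb2), and the split over all genes moved from 2236 higher and 3709 lower to 3042 higher and 2938 lower.

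The ATG8 family, to which the receptors bind, moved as a group in CypD KO. All 5 genes, Map1lc3b among them, were called higher in CypD KO against WT, beside 30.1% of all genes, with a median change of 0.51. All 5 were also called after rescaling. Map1lc3a, which encodes LC3A, rose by 1.23 (5.78 and 6.05 TPM in WT, 16.4 and 14.1 TPM in CypD KO), Gabarapl1 by 0.84 and Gabarapl2 by 0.51. Against Control, labelled CypD OE had 3 of the 5 called lower and none higher, with a median of -0.45. Of all genes, 18.3% were called lower and 19% higher. Gabarap fell by 0.56, from 262 and 269 TPM in Control to 185 and 176 TPM, and Map1lc3a by 0.45. The Map1lc3a call was lost without Control replicate 1, Control replicate 2 or CypD OE replicate 2 (changes of -0.40, -0.49 and -0.36). It was also lost in a fit of the 4 libraries alone (adjusted p = 0.0519).

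The soluble cargo receptors, a list that includes Sqstm1, were tested at 8 of 9 genes, since Calcoco2 was listed at 0 in every library. Sqstm1 was among the genes called higher in both comparisons below. In CypD KO against WT, 6 were called higher and none lower (4 and 1 after rescaling), with a median of 0.39. Of all genes, 30.1% were called higher and 18.4% lower before rescaling. After rescaling these were 3204 and 3481 of the 13526 genes tested. Calcoco1 rose by 1.37 (9.58 and 9.80 TPM in WT, 25.5 and 27.9 TPM in CypD KO), Tax1bp1 by 0.75 and Nbr1 by 0.67. Against Control, 2 were higher and 4 lower in labelled CypD OE, beside 19% and 18.3% of all genes, with a median of -0.05. Calcoco1 fell by 0.61 and Optn by 0.38, while Tax1bp1 rose by 0.25. Calcoco1 is an endoplasmic-reticulum-phagy receptor as well as an ATG8 binder, and Tax1bp1 and Nbr1 are ubiquitin-binding adaptors like p62.

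Of 12 autophagy initiation genes, 2 were called higher and none lower in CypD KO against WT, where 30.1% and 18.4% of all genes were called, with a median of 0.25 over the list. The 2 were the kinase genes Ulk2 and Ulk1, at 0.62 and 0.48. After rescaling 2 genes of the list were higher and 1 lower, beside 3204 and 3481 of the 13526 genes tested. In labelled CypD OE against Control 2 were higher and 2 lower, beside 19% and 18.3% of all genes, with a median of -0.11. Ulk2 rose by 0.44, Ulk1 by 0.40, and Atg13, a partner of both kinases, fell by 0.57. The Ulk1 and Atg13 calls were each lost without Control replicate 1, Control replicate 2 or CypD OE replicate 2. Both were also lost with no filter on low TPM (adjusted p of 0.0506 and 0.0555) and in a fit of the 4 libraries alone (0.0676 and 0.0672). In CypD KO against WT, the Ulk1 call was lost without CypD KO replicate 1 (change of 0.43).

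Of 19 genes of phagophore growth and ATG8 conjugation, 18 were tested. In CypD KO against WT 6 were called higher and 3 lower, shares near the 30.1% and 18.4% of all genes, with a median of 0.13. After rescaling 5 were higher and 5 lower, beside 3204 and 3481 of the 13526 genes tested. The lipid-binding Wipi1 and the E1-like enzyme Atg7 rose by 0.84 and 0.78, and the protease gene Atg4a fell by 0.89. The labelled CypD OE group against Control had 1 higher and 2 lower, beside 19% and 18.3% of all genes, with a median of -0.06. The lipid-transfer gene Atg2b and the scramblase gene Atg9a fell by 0.73 and 0.68. Atg4d rose by 0.43, a call lost without Control replicate 1, Control replicate 2 or CypD OE replicate 2 (changes of 0.51, 0.35 and 0.31). It was also lost with no filter on low TPM (adjusted p = 0.0837) and in a fit of the 4 libraries alone (0.0599). The replicate number as a block (adjusted p = 0.0584) or a fit without a trend (0.0535) lost it too.

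Around Pink1, the pathway showed no shared direction in CypD KO against WT or in labelled CypD OE against Control. Of its 18 tested genes, Pink1 among them, 7 were called higher and 4 lower in CypD KO against WT. The shares of all genes were 30.1% and 18.4%, and the list median was 0.08. After rescaling 7 were higher and 6 lower, beside 3204 and 3481 of the 13526 genes tested. The ubiquitin ligase gene Mul1 rose by 0.73 and Fbxo7 by 0.67, and Tomm40, the channel of the outer-membrane import complex, fell by 0.55. The Mul1 call was lost without WT replicate 1, CypD KO replicate 1 or CypD KO replicate 2 (adjusted p of 0.0686, 0.0505 and 0.0758). In labelled CypD OE against Control 4 were higher and 4 lower, beside 19% and 18.3% of all genes, with a median of 0.06. Tomm7, which helps to hold PINK1 at the outer membrane, fell by 0.46, the fusion gene Mfn2 by 0.34 and the protease gene Oma1 by 0.36. The Oma1 call was lost under each omission of a single library other than Control replicate 1. It was also lost with no filter on low TPM (adjusted p = 0.0909) and in a fit of the 4 libraries alone (0.1165). With the replicate number as a block it was lost too (adjusted p = 0.0610). In the comparisons across oxygen levels more of the list was lower than higher. Control against WT gave 3 higher and 8 lower, beside 12.1% and 12.1% of all genes. Labelled CypD OE against WT gave 2 and 8, beside 14% and 13.7%. Control against CypD KO gave 1 and 7, beside 16.5% and 27.4%.

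Genes that control or bind the membrane receptors were counted as a list of 12. It shares Ulk1 with the initiation list and Marchf5 and Pgam5 with the Pink1 pathway list. In CypD KO against WT 4 were called higher and none lower, beside 30.1% and 18.4% of all genes, with a median of 0.16. Bcl2l1, which encodes the BNIP3-binding survival protein BCL-xL, rose by 1.49 (28.5 and 30.02 TPM in WT, 87.4 and 80.5 TPM in CypD KO). Src, a kinase that phosphorylates FUNDC1, rose by 0.89. In labelled CypD OE against Control 4 were higher and 1 was lower, beside 19% and 18.3% of all genes, with a median of 0.14. Bcl2l1 and Src rose by 0.57 and 0.39.

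Of 13 transcription regulators linked to the 9 genes, 5 were called higher and 1 lower in CypD KO against WT. The shares of all genes were 30.1% and 18.4%, and the list median was 0.08. After rescaling 4 were higher and 3 lower, beside 3204 and 3481 of the 13526 genes tested. The prolyl hydroxylases Egln3 and Egln1, which mark HIF-alpha for degradation and are themselves HIF targets, rose by 1.99 and 1.62, and Vhl by 0.83. In labelled CypD OE against Control 4 were higher and 6 lower, beside 19% and 18.3% of all genes, with a median of -0.23. Egln1 and Egln3 fell by 2.16 and 2.14, and Epas1, which encodes HIF-2alpha, rose by 1.13. Hif1a itself was measured at 139 and 152 TPM in WT, against 157 and 150 TPM in CypD KO, so the groups overlapped, and it was lower in labelled CypD OE (98.3 and 98.9 TPM) than in Control (138 and 135 TPM), a change of -0.47 (SE 0.05, adjusted p = 0.000609).

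A list of 17 further HIF targets served as a reference for the BNIP3 family, and it shares Egln3 with the regulators. In CypD KO against WT 16 were called higher and 1, Ndrg1, lower (-0.22), beside 30.1% and 18.4% of all genes, with a median of 1.77. Adm, Pdk1 and Ak4 rose by 3.25, 2.92 and 2.61. All 17 were called lower in labelled CypD OE against Control, beside 18.3% of all genes, with a median of -2.09. The changes of Pdk1, Adm and Ak4 were -4.26, -3.89 and -2.76. The Bnip3l changes were 1.67 and -1.99 and those of Bnip3 4.22 and -4.47. No order is drawn between Bnip3 and Adm, which stood at 0.14 and 0.53 TPM in labelled CypD OE, since their order turned with a pseudocount of 0.1. Control against WT gave 17 higher with a median of 1.93, beside 12.1% of all genes. Control against CypD KO gave 8 higher and 3 lower with a median of 0.35, beside 16.5% and 27.4% of all genes. Labelled CypD OE against WT gave none higher and 6 lower with a median of -0.21, beside 14% and 13.7% of all genes.

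**Figure D4:**
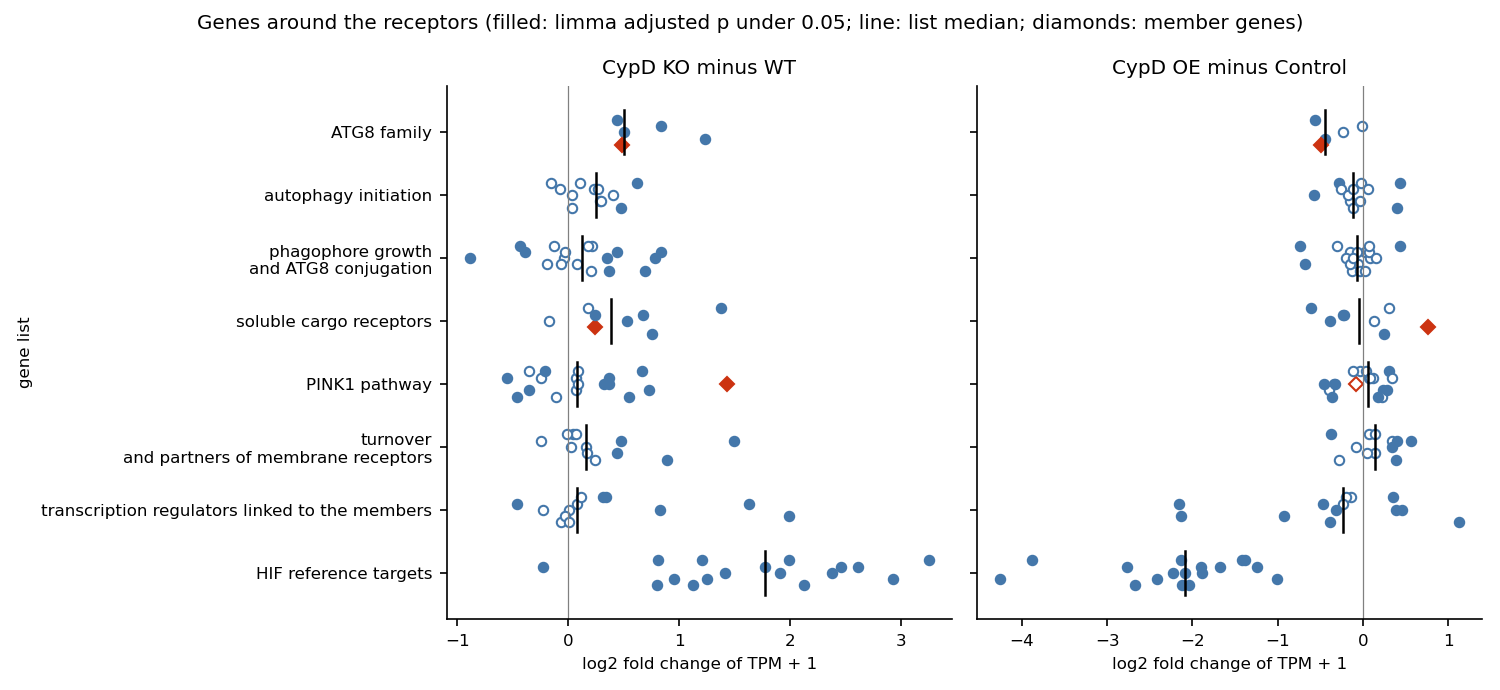
Difference in log2(TPM + 1) (horizontal axes) of the tested genes of 8 lists (vertical axis) in CypD KO against WT and in labelled CypD OE against Control. Filled points had a limma adjusted p under 0.05, diamonds are members of the 9, and lines are list medians: the HIF targets had medians of 1.77 and -2.09, the ATG8 family of 0.51 and -0.45, and the other lists lay nearer to 0.

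The genes whose profile was most like that of Bnip3 were sought by Pearson's r of log2(TPM + 1) over the 8 libraries, as a description. The libraries fall into the low and the high set above, so r mainly measures that split. The closest to Bnip3 were Pfkp and Gm49759 (both 0.997), Npepps and Alkbh5 (both 0.996) and Lonp1 (0.995). Pfkp encodes a glycolytic phosphofructokinase and Lonp1 a protease of the mitochondrial matrix. Pfkp had 36.9 and 36.6 TPM in WT, against 112 and 106 TPM in CypD KO. The closest to Bnip3l were Hk2 (0.998), Espn (0.996), Egln1 (0.996), Ak4 (0.995) and Slc2a1 (0.994), of which Hk2 encodes a hexokinase of the outer mitochondrial membrane and Slc2a1 the glucose transporter GLUT1. Hk2 stood at 39.0 and 41.8 TPM in WT, 105 and 104 TPM in CypD KO, 143 and 143 TPM in Control, and 43.4 and 44.1 TPM in labelled CypD OE. Among the other members, r with Bnip3 was 0.98 for Bnip3l, 0.93 for Fundc1, 0.91 for Map1lc3b, 0.69 for Pink1, 0.17 for Fkbp8, -0.08 for Bcl2l13, -0.48 for Sqstm1 and -0.95 for Phb2.

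Library features that moved with the groups were recorded beside these results. The number of genes above 0 TPM was 19692 and 19456 in CypD KO and lay between 17942 and 18335 in the other 6 libraries. The summed level of the 7 melanocyte markers was 12433 to 12587 TPM in CypD KO, 15665 to 15755 TPM in WT, 20446 to 20984 TPM in Control and 13586 to 13758 TPM in labelled CypD OE. The markers did not move together: in CypD KO against WT 5 were called lower and Tyr higher (37.4 and 41.3 TPM in WT, 167 and 147 TPM in CypD KO), and in labelled CypD OE against Control 4 were called lower and Sox10 higher, by 0.20. The summed level of 4 leukocyte markers was 22.3 and 23.4 TPM in CypD KO and 3.50 and 3.84 TPM in WT, nearly all of it Cd68, a lysosomal protein that is not confined to leukocytes, while the defining markers Ptprc and Adgre1 were at or near 0 in every library. The summed level of 5 fibroblast markers was 34.0 and 36.9 TPM in CypD KO and 15.4 and 17.7 TPM in WT, and Dcn and Lum were at or near 0. Within it Postn rose by 1.91 (8.04 and 8.07 TPM in WT, 34.8 and 31.2 TPM in CypD KO), and Col1a2 fell by 1.79 (9.03 and 6.87 TPM in WT, 1.09 and 2.17 TPM in CypD KO). The 3 epithelial markers were at 0 and the 2 endothelial markers summed to at most 1.18 TPM. The part of these differences in the results on the 9 genes was not tested.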

How the data were processed

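The authors deposited 1 table of TPM values for the 8 libraries. Per the labels and the study's methods, ribosomal-depleted RNA libraries were sequenced as read pairs, trimmed with Cutadapt 3.4, aligned to the mouse genome GRCm39 with STAR 2.7.8a and quantified with RSEM 1.3.1, the genome build and tools being those of the submitters' processing notes. The authors tested read counts with DESeq2 1.26.0, but TPM keeps no counts or depth, so the depth of each library is unknown here and that test was not run. Instead, limma 3.58.1 in R 4.3.3 was fitted to log2(TPM + 1), with a pseudocount of 1, for the 13526 genes at 1 TPM or more in at least 2 of 8 libraries, with 4 group means, a trended prior, two-sided tests and Benjamini-Hochberg adjustment over all genes tested. Gene positions come from GENCODE vM39, and promoter windows from RefSeq.

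From each list the text names up to 3 genes per comparison (CypD KO against WT, labelled CypD OE against Control), those with the largest change among called genes whose libraries did not overlap. Genes outside this rule were named for their role in a result: Hif1a, Ndrg1, Calcoco2, Ddost, Mgat4b, Gm15884, Bid, Kxd1, Zcchc14, Bnip3l-ps, Cd68, Tyr, Sox10, Postn and Col1a2 were chosen after their values were seen. Marchf5 and Pgam5 were named only as genes shared between lists. The members and lists were chosen with earlier results of these data known. The alternatives were pseudocount 0.1, no filter, a filter of 5 TPM, rescaling by the median of ratios, a fit of the 4 libraries compared, a replicate block, no trend, and omission of each library.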

Additional observations from a re-analysis of the deposited data

How the results depend on the processing

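Over the 5 comparisons and the alternatives, 619 values of the 9 genes kept their direction and side of the threshold, 37 lost a call, 15 gained one and 4 changed sign. CypD KO against WT gave 7 higher and 1 lower under each alternative except median-of-ratios rescaling (6 and 1), and labelled CypD OE against Control gave 2 or 3 higher and 4 lower. Control against WT gave 3 higher in the fit of 4 libraries, where 998 of all genes were called higher instead of 1634. Some omissions of single libraries also called fewer members, and each of them called fewer of all genes. For labelled CypD OE against WT, the fit of 4 libraries gave 2 higher and 0 lower. Of all genes, that fit called 1338 higher and 1343 lower, against 1891 and 1853 in the main fit. Median-of-ratios rescaling gave 2 members lower, beside 2166 of all genes. The fits with no filter and without a trend gave 0 members lower each, beside 1497 of 24706 genes and 1549 of 13526. Without single libraries the member counts of this comparison changed in some fits, and fewer of all genes were called in each such fit. Control against CypD KO gave 4 higher after rescaling and 2 in the fit of 4 libraries, beside 3042 and 1985 of all genes. Its counts also moved without single libraries, where fewer of all genes were called each time. The changes of sign came from single libraries: Pink1 in labelled CypD OE against Control (-0.19 to 0.023, the latter without Control replicate 2), Bnip3 in labelled CypD OE against WT (-0.13 without WT replicate 2, -0.014 without CypD OE replicate 1, up to 0.22) and Bcl2l13 in Control against CypD KO (-0.065 without Control replicate 1, up to 0.29). The sources used here do not state whether the replicate numbers pair the libraries. Deviations of same-numbered libraries correlated between -0.03 and 0.11, which with 2 libraries per group cannot exclude pairing. With the replicate block, labelled CypD OE against WT gave 0 members lower and Control against CypD KO gave 2 higher. The cause of these changes was not tested. With 2 libraries per group, no depth and no counts, small differences are uncertain. Calls that changed included Pink1 and Fundc1 in labelled CypD OE against WT and Pink1 and Map1lc3b in Control against WT. Those of Fkbp8 and Bcl2l13 in labelled CypD OE against Control also changed.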
